A study of Cavia porcellus with 8 samples.

Results

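Left ventricular wall of Dunkin Hartley guinea pigs was profiled by total RNA sequencing in 4 libraries from untreated adult, non-pregnant animals (Adult replicates 1 to 4) and in 4 from untreated foetuses at gestation day 67 (Foetus replicates 1 to 4). The described genes were selected on measured values. They had a ratio of adult to foetal mean CPM (counts over the summed gene counts of the library, times 1000000, each mean raised by 0.5) of at least 4, an adult mean of at least 5 CPM, no overlap between the 4 adult and the 4 foetal values, and a mean over the 8 libraries under 1000 CPM. The rule found 90 of the 25028 genes counted, of which 17077 had a count in any library. The same rule with the groups exchanged found 40 genes.

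The labels call the libraries biological replicates, so p-values measure the spread between these 8 libraries. The strain and the lack of treatment were common to both groups. The husbandry notes speak of male and female adults, and the sex of each animal is not given in the sources used here. Sex therefore cannot be told apart from age. Whole ventricular wall holds several cell types. In such bulk tissue, fewer cells of a type and less RNA per cell cannot be told apart.

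Around birth, mammalian heart muscle is known to leave a phase of growth by cell division and to take up a larger, long-lasting workload. As background, the adult myocardium is known for burning fatty acids, for adult forms of contractile and calcium-handling proteins, and for a more mature conduction and connective tissue. Guinea pigs are born at an advanced stage of development compared with mice and rats. Which of these programmes the 90 genes belong to was not analysed here, because the files give Ensembl IDs without names and 0 of the 25028 IDs matched the 37416 genes of the reference table. The tissue label was not checked against marker genes for the same reason. Genes are given below by their rank in adult mean level (rank 1 the highest, rank 90 the lowest), and 2 of them by ID. Where a gene with no ID is described, it was chosen after its values were seen.

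Libraries held 8009143 to 10846059 counts assigned to genes, so 3 counts, the most that a count of 0 allows, equalled 0.277 to 0.375 CPM depending on the library. Adult replicate 4 had the lowest total, with 30.5% of its reads assigned to genes against 36.5% to 38.8% in the other adults. Reads outside annotated features made up 31.6% in that library and 26.4% to 27.8% in the other adults. Among the foetuses, Foetus replicate 3 had 29.8% of such reads and the others 24.6% to 25.2%. The part of these differences in the results below was not tested, and values without Adult replicate 4 are given beside results in which that library was far from the other adults.

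ENSCPOG00000013625, rank 1, had 1118, 1414, 1479 and 1415 CPM in Adult replicates 1 to 4. In Foetus replicates 1 to 4 it had 226, 200, 387 and 369 CPM. Every adult library lay well above every foetal one, although Foetus replicates 3 and 4 lay above Foetus replicates 1 and 2. The adult mean was 1356 ± 162 CPM and the foetal mean 296 ± 96.2 CPM (SD over 4 libraries each), a ratio of 4.58 (edgeR log2 fold change 2.13, SE 0.20). These values rested on 1981 to 3683 counts per foetal library and on 10000 to 16039 counts per adult library. This gene was the only one of the 90 with an adult mean above 1000 CPM. It was thus raised from an already substantial foetal level.

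ENSCPOG00000012779, rank 90, stood at the other end. It had 5.37, 8.76, 3.04 and 2.997 CPM in Adult replicates 1 to 4, and 0.215, 0, 0.330 and 0 CPM in Foetus replicates 1 to 4. Of the 90 genes it had the lowest foetal mean. The foetal values were 2, 0, 3 and 0 counts, against 24 to 89 counts in the adult libraries. The adult mean was 5.04 ± 2.72 CPM and the foetal mean 0.136 ± 0.164 CPM (SD over 4 libraries each). At so few counts the ratio depended on the added constant. It was 8.71 with 0.5 CPM, 21.8 with 0.1 CPM and 3.30 with 2 CPM, whereas that of ENSCPOG00000013625 was 4.59 with 0.1 CPM and 4.56 with 2 CPM.

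The plot of all 90 genes by library shows the extent of both groups.

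**Figure D1:**
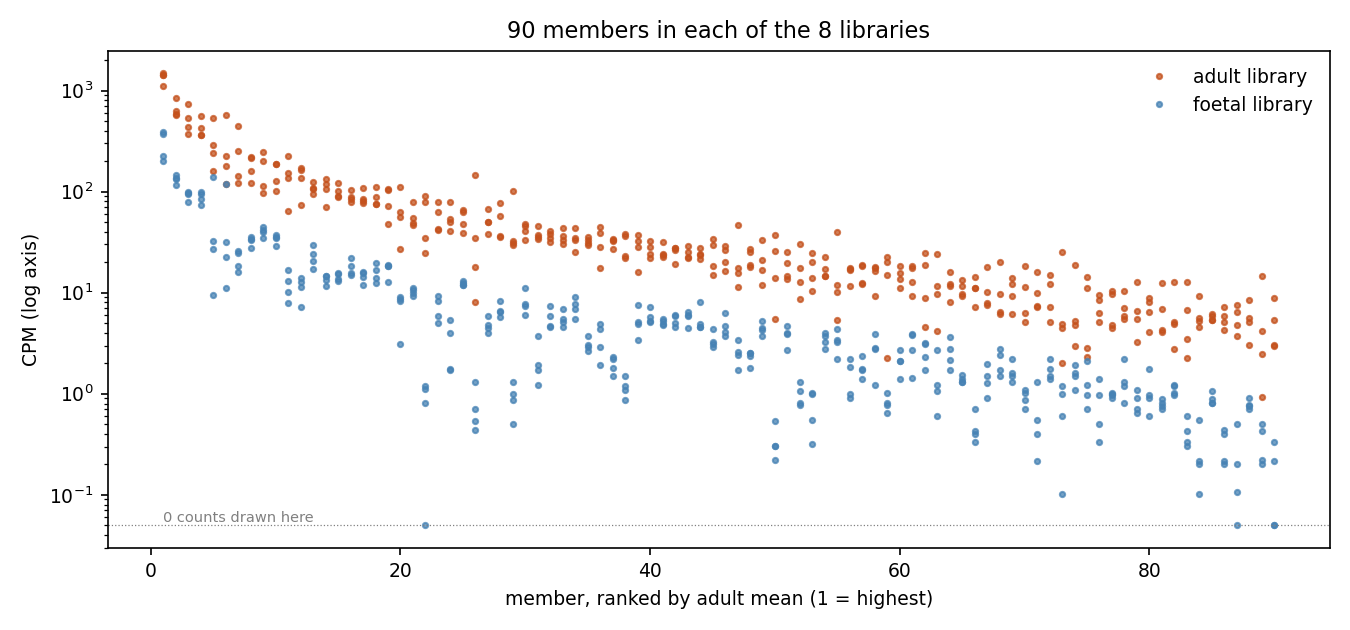
CPM (log axis) of each of the 90 genes in the 4 adult libraries (orange) and the 4 foetal libraries (blue), ordered by adult mean along the horizontal axis. The adult points form a band from 1479 CPM down to 0.922 CPM, and the foetal points lie below them for each gene, with a few at 0 counts drawn on the dotted line.

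The description of these genes as switched on in the adult fitted few of them. In the foetus, 1 of 90 (ENSCPOG00000012779) was at 3 counts or fewer in each library, 0 had no count in all 4 libraries, and 3 had no count in at least 1 library. By contrast, 59 of 90 had at least 10 counts in every foetal library. The foetal mean was under 0.5 CPM in 8 genes, 0.5 to 1 CPM in 15, 1 to 5 CPM in 33, 5 to 10 CPM in 13 and 10 CPM or more in 21. Most of the set was therefore detected before birth and present at a higher level in the adult.

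Adult means ran from 5.04 to 1356 CPM with a median of 23.6 CPM, and foetal means from 0.136 to 296 CPM with a median of 2.81 CPM. The adult mean was 100 CPM or more in 15 genes, 10 to 100 CPM in 56 and 5 to 10 CPM in 19. The first 10 genes held 63.0% of the adult CPM of the set. Together the 90 genes took 0.621%, 0.735%, 0.609% and 0.749% of gene counts in Adult replicates 1 to 4. In Foetus replicates 1 to 4 they took 0.106%, 0.123%, 0.120% and 0.120%. The mean share was 0.678% ± 0.0738 for adults and 0.117% ± 0.00728 for foetuses (SD over 4 libraries each). These shares follow from the rule, and they show that the set made up under 1% of the counted RNA in every library.

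The ratios that chose the genes ran from 4.07 to 45.3, with a median of 5.90. They were between 4 and 5 in 33 genes, between 5 and 8 in 32, between 8 and 16 in 20, and 16 or more in 5. The lowest adult value was at least 2 times the highest foetal one in 81 of the 90 genes and at least 4 times in 38. In 5 genes, those of ranks 5, 6, 55, 62 and 75, it was under 1.5 times, and in rank 6 the groups were all but touching (1.01 times).

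**Figure D2:**
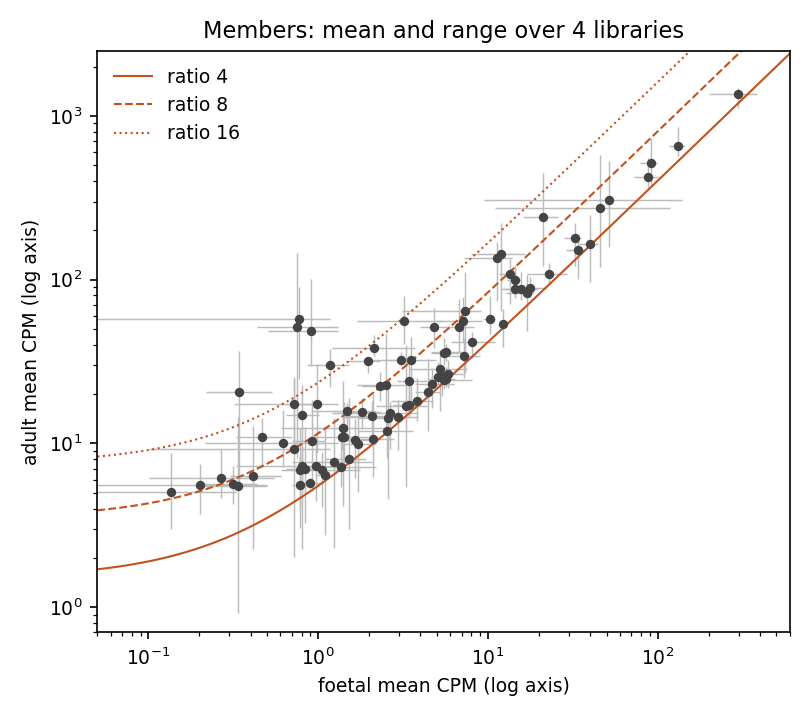
Adult mean against foetal mean CPM of the 90 genes (both axes log), with grey lines from the lowest to the highest of the 4 libraries of each group (a line that reaches the left edge goes to 0 counts). Orange curves mark adult-to-foetal ratios of 4, 8 and 16, with 0.5 CPM added to each mean, and 5 genes lie on or above the curve of 16.

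The 3 largest ratios belonged to ranks 22, 26 and 29, which had adult means of 57.1, 51.7 and 48.6 CPM. Rank 22 had 79.6, 34.5, 89.6 and 24.8 CPM in Adult replicates 1 to 4 and 1.18, 0.807, 0 and 1.10 CPM in Foetus replicates 1 to 4. Its adult libraries were split between 2 higher and 2 lower values, with a ratio of 45.3. Rank 26 had 8.16, 17.8, 34.7 and 146 CPM in the adults and 0.536, 0.706, 0.440 and 1.30 CPM in the foetuses, a ratio of 41.9. Over Adult replicates 1 to 3 its mean was 20.2 CPM and its ratio 16.6. Rank 29 had 32.8, 29.7, 30.8 and 101 CPM in the adults, and 0.858, 0.504, 0.989 and 1.30 CPM in the foetuses, a ratio of 34.7 (22.4 without Adult replicate 4). Its lowest adult value was 22.8 times its highest foetal value, the widest gap among the 90. Without Adult replicate 4 the ratio of rank 22 was 53.8, and rank 50 (ratio 25.1 with all libraries and 18.6 without) was in place 3, with rank 26 in place 5.

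At the edges of the rule, the lowest ratios inside were 4.07 (rank 64) and 4.09, and the highest ratios outside it, without overlap, were 3.983 and 3.982. A further 33 genes with an adult mean of at least 5 CPM had a ratio of 3.5 or more but under 4, where 17 of the 90 genes had one under 4.5. Just under the adult minimum lay a gene at 4.98 CPM in the adult and 0 counts in all 4 foetal libraries. Of the 93 genes that met both the ratio and the adult minimum, 3 were left out because the groups overlapped and 0 because of the ceiling of 1000 CPM. The thresholds thus fell within a continuous range of values.

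In the test across all genes (edgeR, quasi-likelihood, Benjamini-Hochberg adjustment), the filter on low counts kept 89 of the 90 genes, and 89 were called higher in the adult, where 18.4% of the 11831 tested genes were called in that direction. Rank 89 did not pass the filter. All 90 genes were free of overlap by the rule, where every adult library lay above every foetal one in 19.1% of tested genes. The choice used this same contrast, so neither count carries information about the set. The edgeR log2 fold changes of the 89 genes ran from 1.99 to 6.09 with a median of 2.73, and their SEs from 0.14 to 0.99 with a median of 0.29. The median over all tested genes was 0.02.

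A reading that the choice did not use was had by leaving out 1 adult and 1 foetal library, applying the rule to the other 6, and comparing the 2 left-out libraries. Over the 16 such pairs, 90 to 108 genes were chosen (on average 97). Of these, 97.8% to 100% were higher in the left-out adult than in the left-out foetal library, with a mean of 98.97%. Over all genes of at least 5 CPM in the choosing adults and under 1000 CPM in the choosing libraries, the share was 49.1% to 70.6%, with a mean of 57.0%. The median ratio of the chosen genes in the left-out pair was 4.58 to 5.89 (mean 5.22), compared with 5.29 to 5.94 (mean 5.69) in the libraries that chose them. For all genes of that level it was 0.993 to 1.20. The left-out ratio itself reached 4 in 58.9% to 73.9% of the chosen genes and in 0.923% to 1.55% of all genes of that level. In nearly all chosen genes the left-out adult library was thus also the higher one. On average the median ratio was slightly smaller than in the choosing libraries. In some pairs it was larger, as with Adult replicate 2 and Foetus replicate 1 (5.89 compared with 5.74). The genes had passed the rule in the other 6 of the same 8 libraries, so this is a description and no independent support. The 16 pairs share libraries, so no p-value is given.

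**Figure D3:**
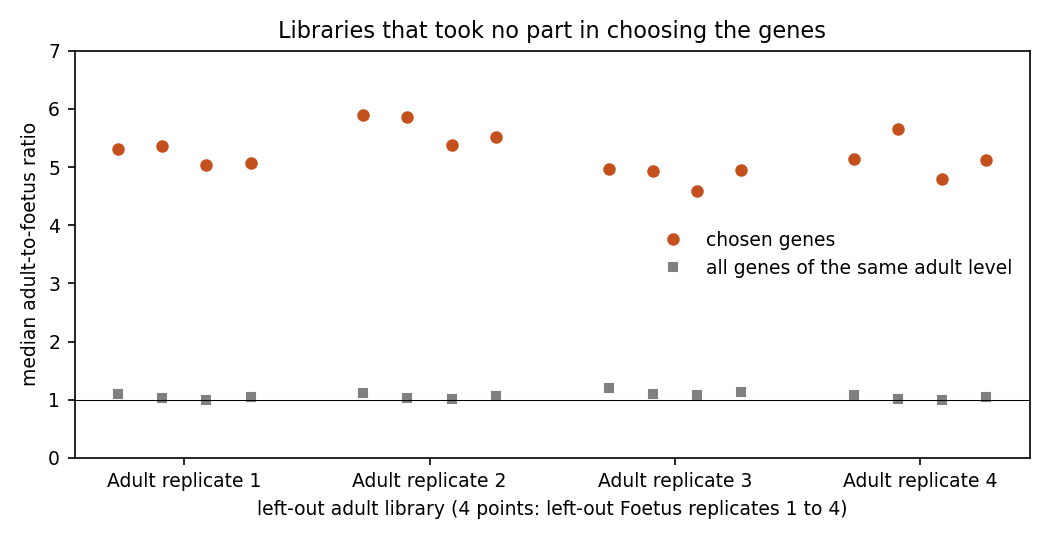
Median adult-to-foetus ratio (0.5 CPM added to each value) in pairs of 1 adult and 1 foetal library that took no part in choosing the genes, grouped by the left-out adult library, with 1 point for each left-out foetal library. Chosen genes (orange circles) lie between 4.58 and 5.89 and all genes of the same adult minimum (grey squares) between 0.993 and 1.20.

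The pairs with Adult replicate 3 gave medians of 4.58 to 4.97, and those with Adult replicate 2 gave 5.37 to 5.89. With Adult replicate 4 left out as the adult, the medians were 4.799 to 5.65, so the genes chosen without that library were also raised in it. With Foetus replicate 3 as the foetus, the medians were 4.58 to 5.37.

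The 90 genes differed widely in how evenly they were expressed among the adults. The highest adult library exceeded the lowest by a median factor of 1.998, and the range over genes was 1.14 to 17.9. The factor was under 1.5 in 19 genes, 1.5 to 2 in 26, 2 to 4 in 30 and 4 or more in 15. Among 9488 other genes with an adult mean of at least 5 CPM, the median factor was 1.43, and it reached 2 in 13.3% of genes, compared with 45 of the 90. Split by adult level, the medians were 2.92 in the set and 1.61 in the others at 5 to 10 CPM, 1.91 and 1.41 at 10 to 100 CPM, and 1.89 and 1.37 at 100 CPM or more. Without Adult replicate 4, over Adult replicates 1 to 3, the median factor of the same 90 genes was 1.69 and that of the others 1.27. Since the rule worked on the adult values, the comparison is a description.

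The most even gene was rank 85, with 5.93, 5.42, 5.35 and 6.12 CPM in Adult replicates 1 to 4 and 1.07, 0.807, 0.879 and 0.802 CPM in Foetus replicates 1 to 4. Rank 35 had 29.7, 35.9, 30.7 and 33.2 CPM in the adults and 3.004, 3.73, 2.64 and 2.91 CPM in the foetuses. Rank 37 had 33.2, 32.6, 26.8 and 33.8 CPM in the adults and 1.502, 1.81, 2.31 and 2.20 CPM in the foetuses. In these 3 genes the adult values were close together, and the ratios were 4.46, 9.22 and 13.1. The foetal values of ranks 85, 35 and 37 rested on 8 to 10, 24 to 37 and 14 to 22 counts per library.

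The 4 least even genes were ranks 26 (given above), 89, 73 and 59. Rank 89 had 2.46, 4.14, 0.922 and 14.5 CPM in the adults and 0.429, 0.202, 0.220 and 0.501 CPM in the foetuses. Rank 73 had 4.47, 4.92, 2.03 and 25.3 CPM in the adults and 1.18, 0.101, 0.989 and 0.601 CPM in the foetuses. Over Adult replicates 1 to 3 the mean of rank 89 was 2.51 CPM (ratio 3.59) and that of rank 73 was 3.81 CPM (ratio 3.54). Neither then met the rule. Both were much higher in Adult replicate 4 than in the other adults. Rank 59 went the opposite way, with 14.99, 19.99, 22.8 and 2.25 CPM in the adults and 0.644, 1.01, 0.769 and 0.802 CPM in the foetuses. In Adult replicate 4 it was low, although still 2.23 times the highest foetal value. Its ratio was 11.9 with all libraries and 15.1 without Adult replicate 4.

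**Figure D4:**
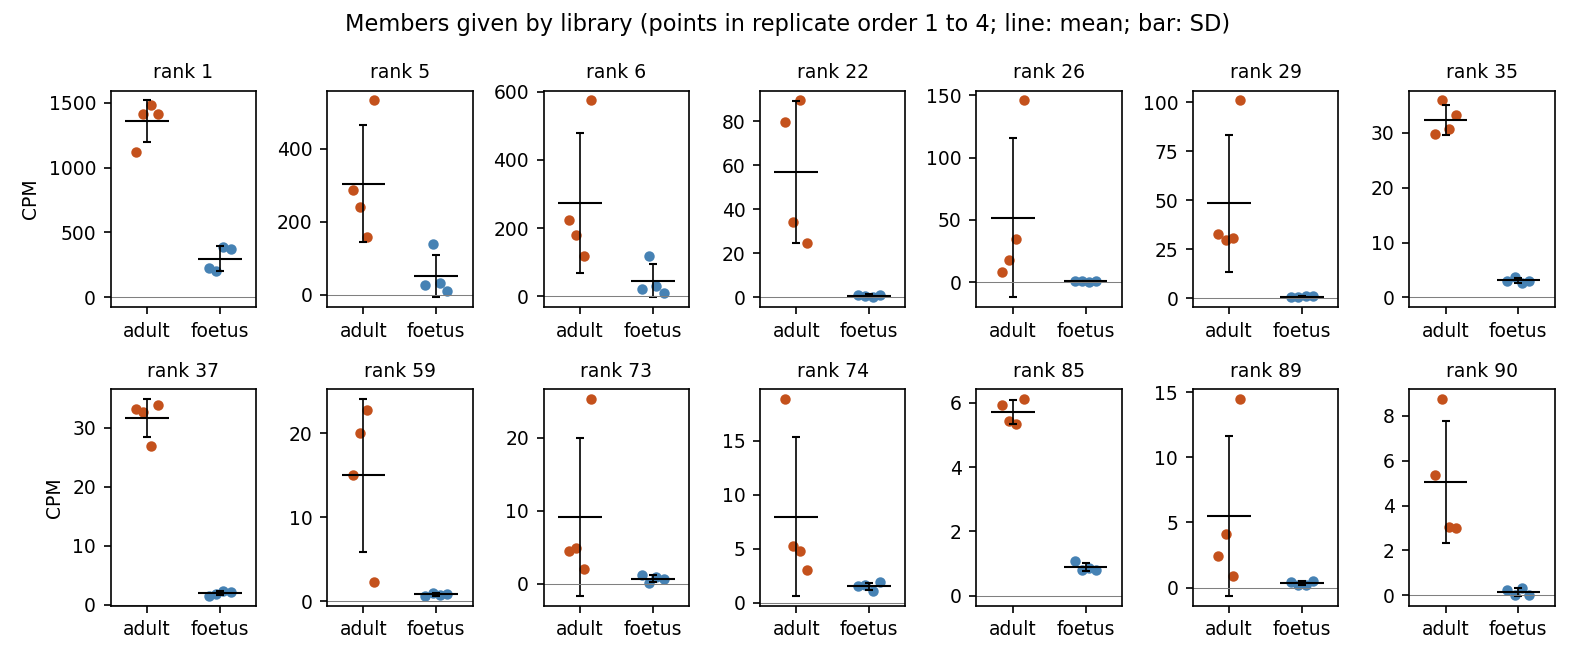
CPM (linear axes that include 0, different for each panel) of the 14 genes given by library, by rank in adult mean, with the 4 adult libraries in orange and the 4 foetal libraries in blue, each in replicate order, the mean as a line and the SD as a bar. Ranks 35, 37 and 85 are even among the adults, ranks 26, 29, 73 and 89 have a high Adult replicate 4, and rank 74 has a high Adult replicate 1. Ranks 5 and 6 have a high Adult replicate 4 and a high Foetus replicate 2.

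Adult replicate 4 was the highest adult library in 41 of the 90 genes (45.6%), and in 29.5% of the other genes. Adult replicates 1, 2 and 3 were the highest in 12, 24 and 13 genes (13.3%, 26.7% and 14.4%). In the other genes their shares were 24.2%, 16.6% and 29.7%, so Adult replicate 2 also had a larger share in the set. The count for Adult replicate 4 was 41 (45.6%) with TMM-scaled libraries and 42 (46.7%) with DESeq2 size factors. The share in the other genes was then higher than with CPM, at 34.3% and 33.5%. In 10 of the 90 genes (11.1%) Adult replicate 4 was at least 2 times the next adult, compared with 0.316% of the other genes. In 1 gene, rank 74, Adult replicate 1 was. That gene had 18.9, 5.22, 4.79 and 2.997 CPM in Adult replicates 1 to 4 and 1.502, 1.61, 1.099 and 1.90 CPM in Foetus replicates 1 to 4, and without Adult replicate 1 it did not meet the rule. The rule takes the adult mean, so a gene high in a single adult library passes it more easily.

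The adult libraries were therefore also read in genes chosen without them. Of the 92 genes chosen without Adult replicate 4, 30.4% were higher in it than in each of the other adults, close to the 28.8% of the 9447 other genes. At least 2 times the highest of the other adults was reached in 4 of the 92 (4.35%, compared with 0.254%), and at most 0.5 times the lowest in 5 (5.43%, compared with 1.39%). For Adult replicates 1, 2 and 3, 0.5 times the lowest of the other adults or less was found in 4 of 97, 1 of 92 and 6 of 99 genes (4.12%, 1.09% and 6.06%), where the other genes gave 0.169%, 0.263% and 0.0636%. Of the genes so chosen, 0 reached 2 times the other adults in Adult replicates 1 to 3. The left-out adult library was above all 4 foetal libraries in 96 of 97, 90 of 92, 98 of 99 and 90 of 92 genes for Adult replicates 1 to 4. The 4 foetal libraries had taken part in that choice, so these counts follow in part from it. Over all tested genes, every adult library lay above every foetal one in 19.1%. The share for a single left-out adult was not computed in the other genes. At least 2 times the other adults in Adult replicate 1 was found in 0.550% of the other genes. The genes were chosen for a high level in the other 3 adults, so lower values in the left-out one follow in part from the choice. The median of the left-out value over the mean of the other adults was 0.815, 0.927, 0.8289 and 0.966 in the chosen genes for Adult replicates 1 to 4, and 0.946, 0.981, 1.06 and 0.963 in the other genes. These shares were not tested.

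**Figure D5:**
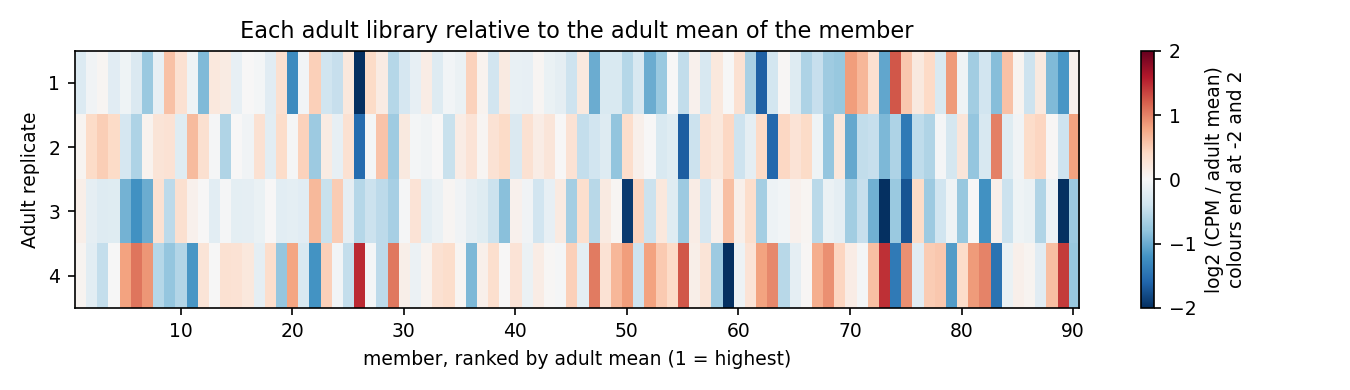
Log2 of each adult library's CPM over the adult mean of the gene, for the 90 genes in order of adult mean (columns) and Adult replicates 1 to 4 (rows), with red above and blue below the mean. Strong colours are more frequent in the row of Adult replicate 4, which was the highest library in 41 genes and the lowest in 20. The highest adult library was at least 4 times the lowest in 6 of 19 genes at 5 to 10 CPM. The same held in 8 of 56 genes at 10 to 100 CPM and in 1 of 15 at 100 CPM or more.

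Without Adult replicate 4, the rule kept 77 of the 90 genes. The 13 that were lost, ranks 6, 40, 49, 55, 62, 68, 72, 73, 75, 78, 82, 88 and 89, all had their highest adult value in that library. They were lost because their adult mean or ratio fell without it, so a high value there largely follows from the loss. Of the 10 genes at least doubled in Adult replicate 4, 4 were kept (ranks 26, 29, 47 and 63) and 6 were lost. Leaving out any other library lost 2 to 7 of the 90 genes, and 66 genes were kept in all 8 sets with 1 library left out. Of these, 49 also met the rule under both other scalings and both other added constants.

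Ranks 5 and 6, both abundant in the adult, varied alike. Rank 5 had 287, 240, 158 and 532 CPM in Adult replicates 1 to 4 and 27.2, 138, 32.5 and 9.52 CPM in Foetus replicates 1 to 4. Rank 6 had 224, 179, 119 and 575 CPM in the adults and 22.7, 118, 31.6 and 11.03 CPM in the foetuses. In both genes Adult replicate 4 was the highest adult library and Foetus replicate 2 was far above the other foetuses, so that it nearly reached the lowest adult value. Rank 5 divided by rank 6 stayed between 0.864 and 1.34 over the 8 libraries, while the level of rank 5 changed from 9.52 to 532 CPM. The order of the libraries within both groups was the same in rank 6 as in rank 5. Of the 89 other genes of the set, 2 (ranks 6 and 77) shared that order in both groups, as did 6 of the 9488 other genes. Rank 6 had been picked for this likeness. Rank 77 had 9 or 10 counts in each foetal library, so its foetal order lay within counting error. The 2 numbers are therefore not a comparison of the set with other genes. Whether the 2 genes share reads or are near copies was not tested.

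Without Foetus replicate 2, the foetal means of ranks 5 and 6 fell from 51.9 and 45.8 CPM to 23.1 and 21.8 CPM. The ratios, 5.82 and 5.93 over all libraries, were then 12.9 and 12.3. Without Adult replicate 4 and with all foetal libraries, the ratios of ranks 5 and 6 were 4.37 and 3.77, so rank 6 did not meet the rule. The ratios of these 2 abundant genes thus depended on single libraries of both groups, by more than 2-fold for Foetus replicate 2.

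In the 34 genes with a foetal mean of at least 5 CPM, the highest foetal library exceeded the lowest by a median factor of 1.48, and the highest adult library exceeded the lowest by 1.71. The 9111 other genes of that foetal minimum, with at least 5 CPM in the adult as well, gave 1.26 in the foetus and 1.42 in the adult. The foetal factor reached 2 in 5 of the 34 genes, those of ranks 5, 6, 11, 20 and 39, and in 194 of the 9111 others. Ranks 5 and 6 had factors of 14.5 and 10.7, and the other 3 had 2.10 to 2.92. Among the 9111 others, the largest factor in genes with a count in every foetal library was 263. The highest foetal library was Foetus replicate 1, 2, 3 and 4 in 20, 20, 25 and 25 of the 90 genes (22.2%, 22.2%, 27.8% and 27.8%), and in 10.46%, 29.6%, 41.1% and 18.9% of the 9488 other genes. Foetus replicate 2 was at least 2 times the next foetus in 4 of the 90 genes (4.44%), those of ranks 5, 6, 63 and 71, and in 0 of the 9488 others. In ranks 63 and 71 this rested on 27 and 13 counts, against 11 and 5 in the next foetus. The comparison was not matched on foetal level, which was at least 5 CPM in 34 of the 90 genes and in 9111 of the others.

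The 40 genes found with the groups exchanged had a median ratio of foetus to adult of 5.14 and a largest ratio of 49.7. Of these, 31 had at least 10 counts in every adult library and 0 had 3 counts or fewer in all of them, so most of them, too, were detected in both groups. Their median levels were 41.1 CPM in the foetus and 8.48 CPM in the adult.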

How the data were processed

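Members and lists were chosen with earlier results of these data known. The deposited files gave raw read counts as whole numbers, 1 file per library, for 25028 Ensembl gene IDs, with summary lines below the genes that name no gene. The sources used here do not state the aligner, genome build, annotation or strand setting, so overlapping, antisense and near-identical genes are uncertain: 33.9% to 38.1% of reads had no unique position and were assigned to no gene. The authors also deposited a table of the same counts divided by size factors, not used here.

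CPM was computed as a gene's count over the summed counts of all genes, times 1000000, and the rule was applied to it. All genes were tested with edgeR (version 4.0.16, R 4.3.3), quasi-likelihood, robust, TMM scaling, filterByExpr, no covariate, adjusted p under 0.05; DESeq2 (version 1.42.0) was an alternative. The code was tested on simulated data. The SE is the log2 fold change over the square root of F. Alternatives were the scaling, the added constant, each threshold, the filter, the block and leaving out each library. The 2 IDs printed are those of the highest adult mean and, as none of the 90 had 0 counts in all foetal libraries, of the lowest foetal mean. Reading single adult libraries in genes chosen without them, the pair of ranks 5 and 6, the ratios without Adult replicate 4 and the sum of Foetus replicates 1 and 2 (whose descriptions open with the same number, of unstated meaning) were added after values were seen. Floors cover counting error only.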

Additional observations from a re-analysis of the deposited data

Results flagged for a closer look

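In the 31 sets of 4 libraries whose values are printed by library, Dixon's test at its usual critical value, which marks about 1 set in 20 by chance, or 1.55 of these, marked 4. The test divides the distance of an extreme library from its neighbour by the whole range. In rank 29, Adult replicate 4 had 101 CPM whereas Adult replicates 1 to 3 had 29.7 to 32.8 CPM (Dixon quotient 0.958). In rank 73, Adult replicate 4 had 25.3 CPM whereas Adult replicates 1 to 3 had 2.03 to 4.92 CPM (Dixon quotient 0.876). In rank 74, Adult replicate 1 had 18.9 CPM whereas Adult replicates 2 to 4 had 2.997 to 5.22 CPM (Dixon quotient 0.860). The gene outside the set with counts in Adult replicate 4 alone, at 159 CPM, had a Dixon quotient of 1. Most of the printed sets were chosen for large ratios or for even or uneven values, so the number is not a rate for the set. Over all 90 genes the test marked 7 adult sets (7.78%) and 3 foetal sets (3.33%), compared with 5.75% and 6.39% of the 9488 other genes.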

How the results depend on the processing

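The count of 90 genes stayed within 1.5 times under both other scalings (83 each), an added 0.1 CPM (101), an adult minimum of 1 or 10 CPM (127 and 71), overlap allowed (93), each library left out (91 to 99) and Foetus replicates 1 and 2 summed (88). It was 51 with 2 CPM added, and of the 39 genes lost there 36 had an adult mean under 30 CPM. A ratio of 3 gave 159 and a ratio of 8 gave 25, by construction. With the groups exchanged these 3 settings gave 25, 81 and 8 in place of 40. Genes of the set at a floor in every foetal library numbered 0 at 0 counts and 16 at 10 counts, and 1 to 3 with a library left out. With the most abundant gene of each library outside the total, the shares of counts were 0.769% in the adult and 0.126% in the foetus, and with a library left out and the rule reapplied they were 0.675% to 0.799% and 0.119% to 0.144%. The median adult factor was 1.67 (without Adult replicate 4) to 2.14. Of genes chosen on 6 libraries at a ratio of 8, 99.8% were higher in the left-out adult. With the replicate block, 89 genes of the set and 1863 of all tested genes were called higher by edgeR. With Foetus replicates 1 and 2 summed the numbers were 90 and 1730, in place of 89 and 2175 as reported. Same-numbered libraries correlated at -0.18 to 0.06 in their deviations, so the numbers were not taken as pairs. In the other tested settings 86 to 90 genes of the set were called, and 1629 to 2566 of all tested genes. The choice used this same contrast, so these counts carry no information about the set.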

Other observations

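Among the 3 genes kept out of the set by overlap between the groups, 1 was found in a single library. It had 159 CPM in Adult replicate 4 and 0 counts in each of the 7 others, where 3 counts, the limit that a count of 0 allows, equal 0.277 to 0.335 CPM.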
